A study of Mus musculus with 10 samples.

Results

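3 kinds of transcript set 3 of these 10 macrophage cultures apart from the other 7: matrix genes known from fibroblast-like stromal cells, genes that handle oxidants and matrix, and, in the opposite direction, genes of MHC class II. Which cells in the cultures made these transcripts was not tested. The 3 libraries, called stroma-rich here, are control 1, control 4 and knock-in 4. They were chosen by the collagen gene Col1a1 alone, as the libraries in which it had at least 10 CPM (counts per 1000000 of the column total), and the stroma-poor group is the remaining 7 libraries (control 2, 3 and 5, and knock-in 1, 2, 3 and 5). Because the choice was made on a transcript measured in these same libraries, every difference between the 2 groups below is a description with no p-value. Tests were kept for genotype, which comes from the labels.

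Each library holds poly(A)+ RNA from macrophages grown out of the bone marrow of 1 mouse aged 6 to 8 weeks. Among the mice, 5 were wild-type controls and 5 were homozygous for a human WDFY3 knock-in (hWDFY3KI/KI), a model in which this adaptor protein of selective autophagy is overexpressed. Marrow was flushed from leg bones and grown on vessels without tissue-culture treatment, in medium conditioned by L-929 fibroblasts, and the cells were taken at day 7. No purification step is given, so each library holds whatever grew in or persisted in the dish. Library totals were 14617652 to 36387405 counts, and the 3 stroma-rich libraries had 21168288, 36387405 and 20432800. The mouse Wdfy3 gene, which does not measure the introduced human gene, lay at 99.9 to 121 CPM in controls and 111 to 127 CPM in knock-ins. All mice are labelled male, but Xist, the RNA of the inactive X chromosome, lay at 279 to 404 CPM in every library, and 4 Y-linked genes together drew 103 counts over all 10: all the libraries go against the sex label.

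Marrow flushed from bone carries stromal cells, fibroblast-like cells that lay down collagen, along with the haematopoietic progenitors that become macrophages under colony-stimulating factor 1 (CSF1). Untreated plastic disfavours stromal cells, which need to attach and spread, so their transcripts are usually a minor share. Macrophages themselves secrete matrix proteases, take up debris and lipid, buffer oxidants through genes driven by the factor NRF2, and present antigen on MHC class II.

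Col1a1 (GENCODE M21, GRCm38 chr11:94936224-94953042) encodes the alpha-1 chain of type I collagen. By column total it was at 34.2 CPM in control 1, 45.3 in control 4 and 22.2 in knock-in 4. The nearest library outside the group, knock-in 3, had 7.71 CPM, and the other 6 had 0.0477 to 2.56. A threshold of 20 CPM would pick the same 3 libraries, and one of 5 CPM would add knock-in 3.

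The other markers followed the same division. CPM from here on is scaled by TMM, edgeR's factor for composition. The summed CPM of the stromal list, 47 genes without Col1a1, had its widest gap between 351 and 688, which parts the same 3 libraries from the same 7. Col1a2, the partner chain of type I collagen, was at 43.1, 48.8 and 25.5 CPM in control 1, control 4 and knock-in 4, against 0.0956 to 6.38 CPM (median 1.88) in the stroma-poor libraries. Dcn, a proteoglycan that binds collagen fibrils, was at 23.9, 18.1 and 11.8 CPM against 0.0956 to 2.45 CPM (median 0.908). S100a9, a calcium-binding protein of neutrophils and monocytes, was at 9.56, 14.3 and 3.91 CPM against 0.287 to 2.99 CPM (median 1.23). None of the 3 overlapped between the groups, although for S100a9 knock-in 4 stood little above the highest stroma-poor library. The fitted log2 differences, stroma-rich minus stroma-poor with genotype held fixed, were 3.98 ± 0.72, 3.68 ± 0.55 and 2.41 ± 0.42 (± SE).

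**Figure D1:**
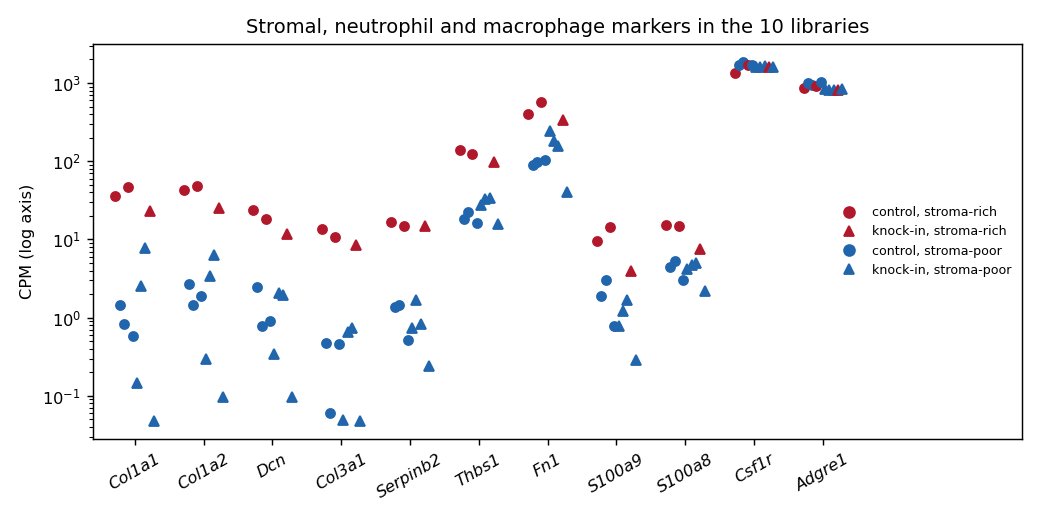
CPM of 11 marker genes in each of the 10 libraries, on a log axis; red marks the 3 stroma-rich libraries and blue the 7 stroma-poor ones, circles are controls and triangles knock-ins. For Col1a1 to S100a8 every red point lies above every blue point, while Csf1r and Adgre1, which mark macrophages, overlap.

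The macrophage label held in every library. Csf1r, the CSF1 receptor, was at 1338, 1703 and 1579 CPM against 1614 to 1859.8 CPM (median 1638), and Adgre1, which encodes the F4/80 antigen, was at 859.6, 905 and 811 CPM against 809.6 to 1040.2 CPM (median 846). Both overlapped between the groups. The list of macrophage lineage genes summed to 53135 to 57941 CPM in the stroma-rich and 42352 to 54193 CPM in the stroma-poor libraries, with 50.4% from Lyz2. Stromal transcripts were a small share beside that list. The stromal list summed to 688 to 1021 CPM in the stroma-rich and 189.9 to 351 CPM in the stroma-poor libraries, and Fn1, which macrophages also make, supplied 49.0% of its counts. In bulk RNA, fewer cells of a type and less RNA per cell cannot be told apart.

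The first principal component of log2 CPM held 33.5% of the variance and placed the stroma-rich libraries at -44.5, -38.7 and -33.3 and the stroma-poor ones at 5.68 to 26.3, with knock-in 3 lowest among the 7. The second component (13.6%) ordered the stroma-poor libraries by genotype, with the 3 controls at -23.8 to -16.6 and the 4 knock-ins at 0.814 to 30.8. The 3 stroma-rich libraries lay close together on it, at -2.79 to 3.98. Both components used all 12867 genes that passed the filter on low counts. Col1a1 was among them, as were 312 genes that passed only through the stroma-rich libraries, so the first component is no independent check of the division.

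**Figure D2:**
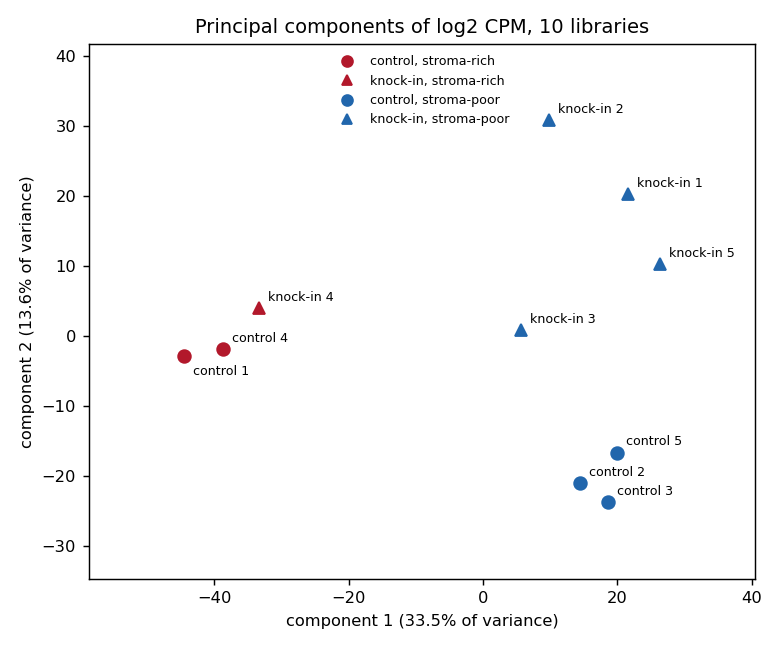
First and second principal components of log2 CPM for the 10 libraries, coloured and shaped as in the marker plot. The stroma-rich libraries sit together at the left, between -44.5 and -33.3 on the first component, and the second component parts controls from knock-ins mainly among the stroma-poor libraries.

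Across the 12866 genes that passed the filter on low counts, Col1a1 aside, the median log2 difference was 0.00, with quartiles of -0.11 and 0.11. Higher in every stroma-rich library than in every stroma-poor one were 857 genes (6.66% of those tested), and lower in every one 629 (4.89%). Genes with such a separation are called separated below. Adding a fitted difference of at least 1.5-fold left 390 higher (3.03%) and 156 lower genes (1.21%), and at 2-fold 249 and 66. Scaling by column totals shifts the median gene by -0.09 and turns the balance, to 528 separated genes higher and 1384 lower at any fold (331 and 207 at 1.5-fold). Of the 390 higher genes, 119 passed the filter only through the stroma-rich libraries, so their difference was partly given by the filter. Among all 12866 tested genes, 312 passed that way. The 6 lists of stromal, matrix, protease and smooth muscle genes held 66 of the 390, and 280 belonged to none of the 44 lists used here.

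**Figure D3:**
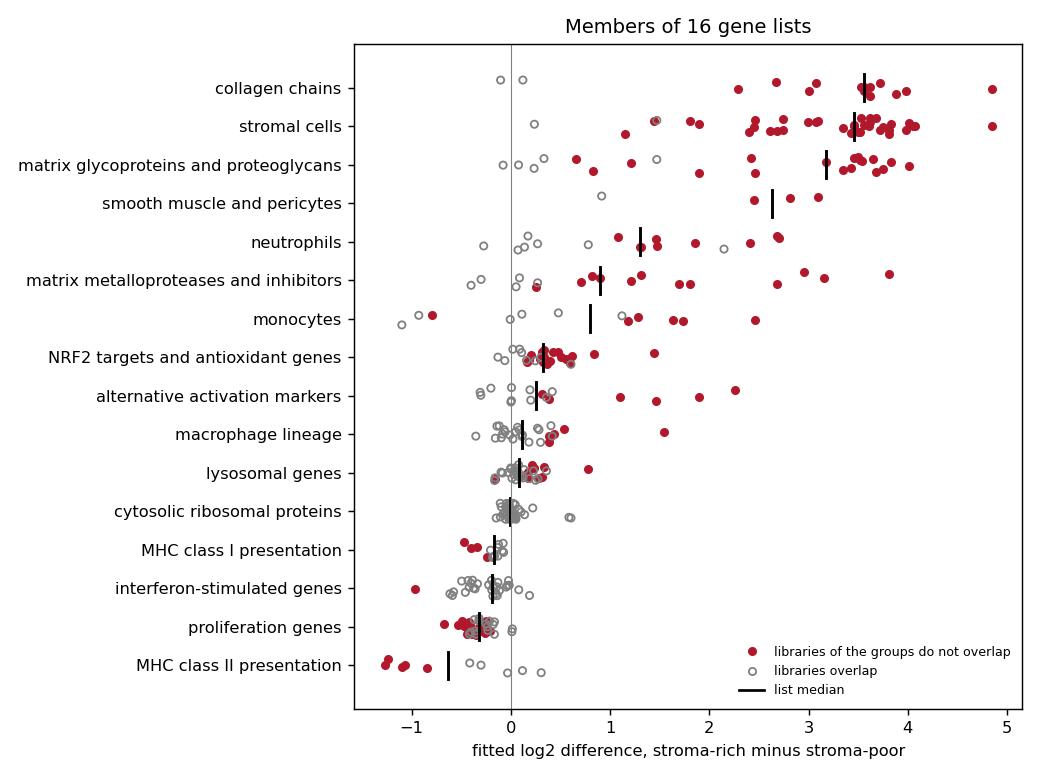
Fitted log2 difference (stroma-rich minus stroma-poor) of each tested member of 16 gene lists, Col1a1 left out; filled points are genes whose 2 groups of libraries do not overlap, open points overlap, and the bar is the list median. Collagen chains and stromal genes lie mostly above 2, NRF2 targets mostly between 0 and 1, and the lowest points are MHC class II genes.

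Collagen and its machinery were higher together. Of 19 collagen chains other than Col1a1, 15 were tested, 13 were separated upward and none downward, with a median log2 difference of 3.56; 5 of those tested passed the filter only through the stroma-rich libraries. The same is true of 16 of 38 stromal, 6 of 23 glycoprotein, 4 of 19 processing, 4 of 14 cytokine, 4 of 16 neutrophil, 3 of 9 dendritic and 2 of 4 smooth muscle genes, and of 1 gene each in the protease, marrow reticular, mast cell, stem cell, lipid uptake and inflammatory lists. Such counts support nothing by themselves. Col3a1, the fibrillar collagen of loose connective tissue, was at 13.5, 10.9 and 8.54 CPM against 0.0478 to 0.742 CPM (median 0.454), a log2 difference of 4.85 ± 0.49. No other gene separated upward and averaging 1 CPM or more differed by as much. Col6a3, a chain of the beaded-filament collagen VI, was at 4.95, 3.37 and 2.57 CPM against 0.0956 to 0.472 CPM (median 0.195). Among 19 tested genes for collagen processing, 12 were separated upward and none downward. Their median of 0.60 was 0.36 without control 1, 0.33 without control 4 and 0.27 with the low-count filter set by genotype. Serpinh1, the collagen-specific chaperone HSP47, was at 10.4, 12.1 and 7.36 CPM against 0.0956 to 1.05 CPM (median 0.558). Loxl1, which crosslinks elastin and collagen, was at 3.58, 3.66 and 2.16 CPM against 0 to 0.519 CPM (median 0.129). Chaperone, crosslinker and chains showed the same order of groups, with control 1 and control 4 above knock-in 4 in each of these 4 genes. All stroma-poor values of Col6a3 lay under the filter's 0.483 CPM, so it passed through the stroma-rich libraries alone and had to be separated. Loxl1 too was low in the stroma-poor libraries, so the order of groups in Col6a3 and Loxl1 supports nothing by itself. With the threshold at 5 CPM of Col1a1, which moves knock-in 3 across, 6 collagen chains, 7 processing genes, 7 glycoproteins and proteoglycans, 5 proteases and inhibitors and 1 neutrophil gene were separated upward.

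Other matrix proteins gave the same picture over a wider range. Of 23 tested glycoproteins and proteoglycans, 18 were separated upward and none downward. Their median of 3.18 was 2.01 without control 1, 1.98 without control 4 and 2.15 with the filter set by genotype. Fn1, fibronectin, was at 397, 577 and 335 CPM against 40.8 to 247 CPM (median 103), and its log2 difference of 1.89 ± 0.53 carries a wide error, with the stroma-poor libraries spread widely among themselves. Nid1, which links laminin to collagen IV, was at 4.26, 3.77 and 3.65 CPM against 0.130 to 0.437 CPM (median 0.215). Ccn1, a matricellular protein, was at 4.51, 4.23 and 3.24 CPM against 0.0478 to 0.584 CPM (median 0.306), and Ccn2, its relative, at 8.53, 5.13 and 6.84 CPM against 0 to 1.95 CPM (median 0.838). Spp1, osteopontin, which macrophages make in quantity, supplied 92.0% of the list's counts; it was at 10976, 8749 and 8058 CPM against 4139 to 6573 CPM (median 5149.9), a log2 difference of 0.82 ± 0.15. On the log2 scale Nid1 and Ccn1 differed by 3.83 ± 0.29 and 3.81 ± 0.42, more than Spp1. All stroma-poor values of Nid1 lay under the filter's 0.483 CPM, so it passed through the stroma-rich libraries alone and had to be separated. Ccn1 too was low in the stroma-poor libraries, so the contrast with Spp1 supports nothing by itself.

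Some other genes of the stromal list and of the stromal cytokine list also had groups that did not overlap. Pdgfra and Pdgfrb, receptors for platelet-derived growth factor and named after their values were seen, were at 5.00, 3.46 and 2.01 CPM and 3.63, 3.57 and 2.68 CPM, against 0.0478 to 0.558 CPM (median 0.146) and 0.146 to 0.838 CPM (median 0.429). Prrx1, a transcription factor of limb and marrow mesenchyme, was at 5.68, 5.90 and 3.19 CPM against 0 to 0.786 CPM (median 0.195). Grem1, a secreted antagonist of bone morphogenetic proteins, was at 15.8, 9.95 and 9.78 CPM against 0 to 2.02 CPM (median 1.02). Cxcl5, a chemokine that attracts neutrophils, was at 6.57, 7.43 and 4.12 CPM against 0.0478 to 1.10 CPM (median 0.259). Of 14 tested stromal cytokines and growth factors, 6 were separated upward and 2 downward. The downward ones were Kitl, the ligand of the Kit receptor, at 12.9, 13.5 and 14.4 CPM against 18.0 to 28.4 CPM (median 24.0), and Il7, the lymphoid growth factor. Kitl and Il7, which marrow reticular cells are known for, therefore ran against the fibroblast genes. The marrow reticular list did not share that direction: of 11 tested genes 7 had positive and 4 negative differences (median 0.06).

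Csf1 itself, the growth factor of macrophages and a product of stromal cells, was at 19.5, 16.8 and 17.3 CPM against 6.52 to 12.4 CPM (median 9.46), a log2 difference of 0.93 ± 0.16. The 3 stroma-rich values lay within a narrow band above all 7 others. Among 11 tested genes that respond to CSF1, Csf1 was the 1 separated upward and Ccnd1, cyclin D1, the 1 separated downward. Ccnd1 was at 61.9, 74.5 and 62.9 CPM against 84.6 to 155 CPM (median 114).

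Proteases that cut matrix and the inhibitors that hold them in check were 17 tested genes, of which 12 were separated upward and none downward (median 0.90). Mmp12 (chr9:7344381-7369499), macrophage elastase, was at 17488, 14210.1 and 14157 CPM in control 1, control 4 and knock-in 4, against 6534 to 11538 CPM (median 9509.6). Its log2 difference was 0.71 ± 0.16, and it is among the 6 genes with the largest gain in mean CPM. Mmp3, a stromelysin of fibroblasts, was at 6.91, 4.08 and 4.01 CPM against 0 to 1.10 CPM (median 0.714). Timp3, an inhibitor bound to matrix, was at 12.3, 7.94 and 8.13 CPM against 0.478 to 4.498 CPM (median 0.973). Serpinb2, an inhibitor of plasminogen activators that activated macrophages make, was at 16.7, 14.97 and 14.7 CPM against 0.239 to 1.69 CPM (median 0.830). Its log2 difference of 3.94 ± 0.32 was close to that of Col1a2, with values in the 3 stroma-rich libraries that lay close together.

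The promoters of Mmp12 and Mmp3 are shown because a macrophage gene and a fibroblast gene of this family, both separated upward, carry the same letters close to their starts. Both are 200 bases directly before a RefSeq start (GRCm38.p6), written 5′ to 3′ along the gene, for Mmp12 at chr9:7347174-7347373, plus strand (1 of its 2 listed starts) and for Mmp3 at chr9:7445622-7445821, plus strand. Capitals mark the AP-1 element searched for, TGANTCA on either strand, which stands 44 bases before the start in Mmp12 and 46 in Mmp3.
Mmp12: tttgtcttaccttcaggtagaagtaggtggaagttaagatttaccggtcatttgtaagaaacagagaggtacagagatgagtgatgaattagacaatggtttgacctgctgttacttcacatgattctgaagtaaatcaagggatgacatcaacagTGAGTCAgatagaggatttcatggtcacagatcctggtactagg
Mmp3: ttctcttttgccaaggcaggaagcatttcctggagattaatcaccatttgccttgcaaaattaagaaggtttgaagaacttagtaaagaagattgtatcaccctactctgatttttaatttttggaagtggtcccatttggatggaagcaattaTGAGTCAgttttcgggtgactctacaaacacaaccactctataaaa
The element is in such a window of 4 of the 11 listed protease and inhibitor genes with an entry (Mmp12, Mmp13, Mmp3 and Plaur), in 432 of 9599 tested genes (4.50%) and in 5.48% of all 32851 windows. Plaur, the receptor of urokinase, overlapped between the groups, and a match in letters is a description, not a binding site.

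Markers of other cell types were read from 16 lists, and their part in the differences was not tested. Neutrophil genes were partly separated: 9 of 16 tested genes were separated upward and none downward (median 1.31). S100a8, the partner of S100a9, was at 15.2, 14.7 and 7.56 CPM against 2.20 to 5.33 CPM (median 4.46), and Ngp, a protein of neutrophil granules, at 6.47, 9.36 and 3.91 CPM against 0.191 to 1.62 CPM (median 0.524). Ltf, lactoferrin, was at 2.25, 4.28 and 1.13 CPM against 0.0478 to 0.719 CPM (median 0.324). Control 4 was highest for S100a9, Ngp and Ltf, and knock-in 4 lowest of the 3 stroma-rich libraries. Ly6g, which defines mature neutrophils, stayed under 1 CPM in every library, and the list summed to 602 to 862 CPM in the stroma-rich and 409.7 to 710.03 CPM in the stroma-poor libraries, which overlap.

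Monocyte genes did not share 1 direction: 5 of 12 were separated upward and 1 downward. F13a1, coagulation factor XIII, was at 26.6, 11.4 and 14.0 CPM against 2.40 to 6.20 CPM (median 5.45), and Vcan, versican, at 7.497, 4.28 and 2.88 CPM against 0.299 to 1.31 CPM (median 0.844). Ccr2, the receptor that brings monocytes out of marrow, was at 12.8, 20.3 and 16.1 CPM against 14.0 to 39.8 CPM (median 32.6), overlapping and with a difference of -0.93 ± 0.30. The monocyte list summed to 76.8 to 83.8 CPM in the stroma-rich and 55.2 to 104 CPM in the stroma-poor libraries.

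Smooth muscle and pericyte genes had 3 of 4 tested members separated upward, led by Tagln at 4.36, 2.84 and 2.83 CPM against 0 to 1.17 CPM (median 0.359) and Acta2 at 5.98, 4.17 and 4.53 CPM against 0.239 to 1.44 CPM (median 0.958). Both encode contractile proteins that activated fibroblasts also make, and the defining Myh11, Rgs5 and Cspg4 stayed under 1 CPM everywhere. Of the osteoblast list 4 genes were tested and 2 were separated upward (Spp1 and Runx2), with Bglap, Ibsp and Sp7 under 1 CPM. Marrow reticular genes had 3 separated upward and 2 downward of 11, and Lepr and Adipoq were under 1 CPM. Of 6 endothelial genes, only Vwf was separated, and downward. Of 8 tested osteoclast genes, 2 were separated upward and 6 overlapped, 3 of them with negative differences. By column totals 1 was separated upward. The 2 encode a phosphatase and a protease that macrophages also make. Acp5 was at 105, 109 and 95.5 CPM against 28.2 to 54.1 CPM (median 40.8). Ctsk was at 164, 132 and 141 CPM against 62.4 to 130.2 CPM (median 81.5), and Calcr drew no count. Of 9 tested dendritic genes, Fscn1 and Clec9a were separated upward, both near 1 or 2 CPM at their highest, and with the filter set by genotype none of 6 was.

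In the remaining 7 lists few genes were separated. No tested gene was separated in the lists for mast cells and basophils (5 tested), erythroid cells (2), B and plasma cells (5) or T and NK cells (3). Tpsb2 had no count, and Mcpt8, Cpa3, Hba-a1, Hbb-bs, Cd3e, Cd3g and Ncr1 stayed under 1 CPM. Siglecf of the eosinophil list was separated upward at 20.7, 23.4 and 18.8 CPM against 13.2 to 18.2 CPM (median 16.03), with Epx under 1 CPM. Of 4 tested megakaryocyte genes, 1 was separated upward and 1 downward. Pf4 was upward at 8.82, 5.73 and 5.30 CPM against 2.23 to 4.09 CPM (median 3.39), with Gp9 under 1 CPM. Vwf was downward and supplied 93.8% of the list's counts. The list summed to 79.9 to 102 CPM in the stroma-rich and 109 to 124 CPM in the stroma-poor libraries. Cd34 of the stem and progenitor list was separated downward, at 1.62, 1.93 and 1.70 CPM against 2.01 to 6.67 CPM (median 3.52).

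Among 27 macrophage lineage genes, all tested, 6 were separated upward, none downward, and the median was 0.11. Mertk, a receptor for apoptotic cells, was at 119, 100.4 and 123 CPM against 69.6 to 97.4 CPM (median 80.8), and Lgmn, the lysosomal protease legumain, at 1574, 1418 and 1599.6 CPM against 989.9 to 1307 CPM (median 1188). Cebpb, a transcription factor of myeloid cells, was at 51.8, 58.9 and 53.9 CPM against 35.9 to 50.1 CPM (median 38.4). These are modest differences of 0.54, 0.40 and 0.44 on the log2 scale, beside several-fold ones for the stromal genes. By column totals, 3 rather than 6 of the list were separated.

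**Figure D4:**
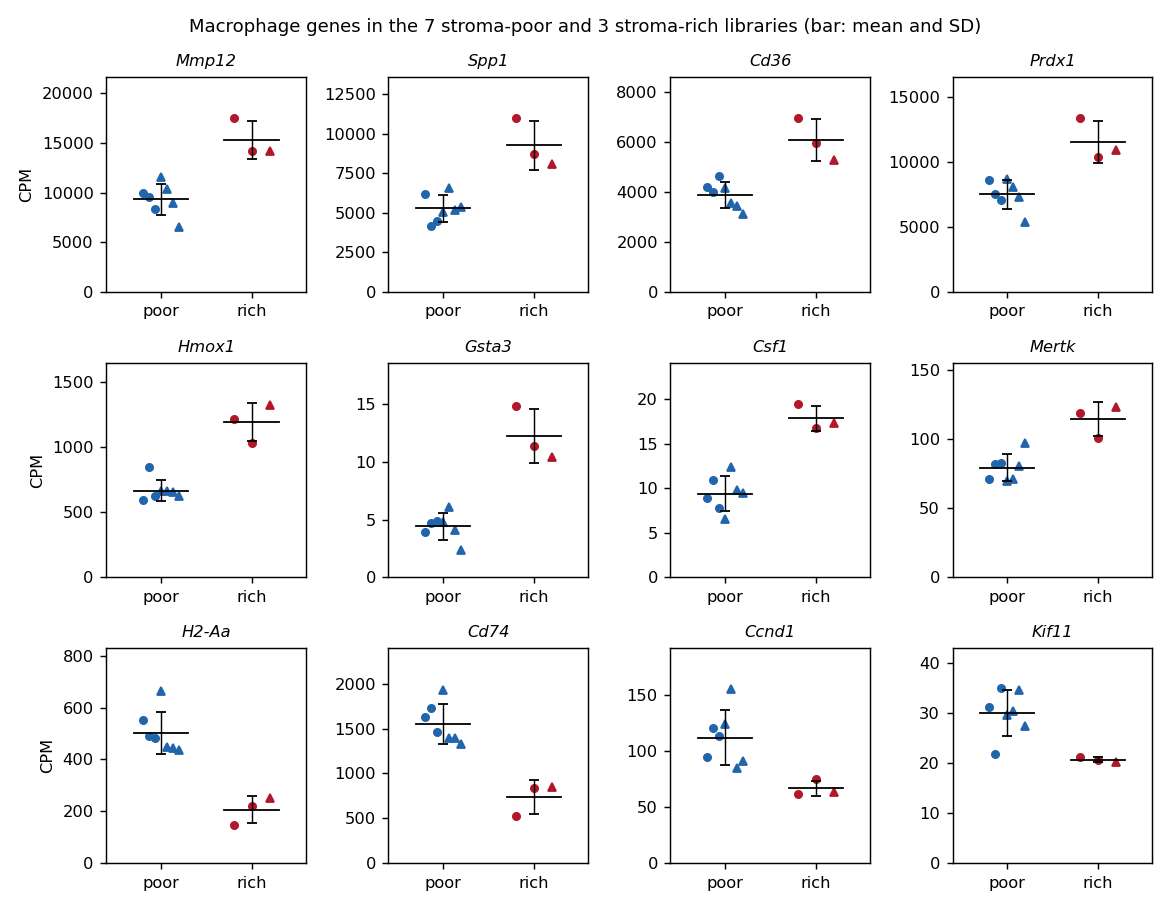
CPM of 12 genes in the 7 stroma-poor (blue) and 3 stroma-rich (red) libraries on axes that start at 0; circles are controls, triangles knock-ins, and bars give mean and SD. Mmp12, Spp1, Cd36, Prdx1, Hmox1, Gsta3, Csf1 and Mertk are higher, and H2-Aa, Cd74, Ccnd1 and Kif11 lower, in every red point than in every blue one.

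Genes for taking up debris and lipid included several with large absolute differences. Cd36, a scavenger receptor for oxidised lipid and apoptotic cells, was at 6968, 5949 and 5285 CPM against 3105 to 4629 CPM (median 3978), a log2 difference of 0.59 ± 0.09. Mfge8, a bridge between apoptotic cells and integrins, was at 2791, 2944 and 3386 CPM against 648 to 2247 CPM (median 1504). Thbs1, thrombospondin 1, another such bridge and also a stromal product, was at 139, 124 and 96.4 CPM against 15.8 to 33.5 CPM (median 22.1), a difference of 2.42 ± 0.27. Of 26 tested genes of this kind, 6 were separated upward and none downward; the list median was 0.08, and -0.01 by column totals. For lipid uptake and storage, 5 of 15 tested genes were separated upward and none downward. The list of lipid efflux genes and other targets of the sterol sensor LXR had 3 of 17 separated upward and 2 downward, so its separated genes did not share a direction. Among them Abca1, the cholesterol exporter, was at 535, 582 and 523 CPM against 334 to 416 CPM (median 387). Nr1h3, which encodes LXR-alpha itself, and its target Pltp were separated downward, with log2 differences of -0.30 ± 0.10 and -0.41 ± 0.12.

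NRF2 targets and antioxidant genes, which detoxify peroxides and quinones and make glutathione, were higher together. Of 28 genes, all tested and none reaching the filter only through the stroma-rich libraries, 19 were separated upward, none downward, and 26 had positive differences (median 0.33). Their summed level was 60959 to 61559.7 CPM in the stroma-rich and 47784 to 53882 CPM in the stroma-poor libraries. Gsta3, a glutathione transferase, was at 14.8, 11.4 and 10.4 CPM against 2.39 to 6.10 CPM (median 4.67), a log2 difference of 1.44 ± 0.21. Hmox1, the haem-degrading oxygenase, was at 1219.6, 1034 and 1321 CPM against 592 to 846 CPM (median 658). Prdx1, a peroxide-removing enzyme, was at 13352, 10336 and 10906 CPM against 5351 to 8659 CPM (median 7517), a difference of 0.60 ± 0.14. Gclm, a subunit of the enzyme that makes glutathione, was at 228, 193 and 184 CPM against 78.1 to 149 CPM (median 139). In Gsta3, Prdx1 and Gclm control 1 was the highest library, and in Hmox1 knock-in 4 was. Srxn1 and Txn1, named after their values were seen, repair and reduce oxidised protein thiols and differed by 0.50 ± 0.11 and 0.56 ± 0.07. Nqo1, a quinone reductase and a usual NRF2 target, was at 14.8, 17.1 and 11.1 CPM against 4.45 to 11.2 CPM (median 9.67) and overlapped through knock-in 4. By column totals 11 of the 28 were separated upward and none downward (median 0.24), and with the threshold at 5 CPM, which moves knock-in 3 across, none were.

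Promoters of Gsta3, Prdx1 and Gclm are shown because these 3 genes are among those separated and hold the letters NRF2 is known to read. They are the 200 bases before the RefSeq start (GRCm38.p6), at chr1:21240385-21240584, plus strand for Gsta3, chr4:116685399-116685598, plus strand for Prdx1 and chr3:122245357-122245556, plus strand for Gclm. Capitals mark the antioxidant response element, TGACNNNGC on either strand.
Gsta3: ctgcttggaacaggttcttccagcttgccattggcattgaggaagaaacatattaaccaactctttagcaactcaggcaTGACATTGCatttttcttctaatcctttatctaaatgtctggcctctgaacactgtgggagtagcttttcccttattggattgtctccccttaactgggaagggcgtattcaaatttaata
Prdx1: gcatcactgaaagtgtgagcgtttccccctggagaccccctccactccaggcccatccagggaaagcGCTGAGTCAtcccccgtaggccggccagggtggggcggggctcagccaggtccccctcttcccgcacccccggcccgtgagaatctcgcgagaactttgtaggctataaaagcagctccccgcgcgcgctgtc
Gclm: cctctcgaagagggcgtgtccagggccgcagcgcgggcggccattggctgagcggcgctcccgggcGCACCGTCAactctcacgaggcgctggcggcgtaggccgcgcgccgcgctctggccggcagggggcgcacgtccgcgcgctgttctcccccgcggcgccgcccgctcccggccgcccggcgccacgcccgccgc
The element begins 121, 133 and 134 bases before the start, and it lies on the opposite strand in Prdx1 and Gclm. In Prdx1 it overlaps an AP-1 element. Of 23 list members with a window, 6 (26.1%) hold it (G6pdx, Gclm, Gsta3, Prdx1, Sod1 and Txnrd1), against 1173 of 9599 tested genes (12.2%) and 8.60% of all windows. Sod1, which holds it, overlapped between the groups, and Hmox1 had no entry.

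MHC class II genes, which display peptides to helper T cells, were lower. Of 10 tested genes, 5 were separated downward, none upward, and the median was -0.63. With the threshold at 5 CPM none was separated (median -0.44). H2-Aa (chr17:34282744-34287823), the alpha chain of I-A, was at 147, 222 and 249 CPM against 435 to 666 CPM (median 481), a log2 difference of -1.27 ± 0.19. H2-Eb1, a beta chain of I-E, was at 78.1, 120.2 and 126 CPM against 214 to 358 CPM (median 237), and H2-Ab1, the beta chain of I-A, at 106, 171 and 176 CPM against 271 to 427 CPM (median 320.0). Cd74, the invariant chain that escorts them, was at 524, 841 and 847 CPM against 1326 to 1929.6 CPM (median 1461), a difference of -1.07 ± 0.18. Control 1 was lowest and knock-in 4 highest of the stroma-rich libraries in all 4, and even knock-in 4 was below the lowest stroma-poor library. Ciita, the coactivator of class II transcription, named after its values were seen, was at 15.4, 26.1 and 27.8 CPM against 35.1 to 50.0 CPM (median 41.5). The loading chaperones H2-DMa, H2-DMb1 and H2-DMb2, and the protease Ctss, which trims Cd74, overlapped.

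The promoters of H2-Aa and H2-Eb1 are shown for the Y box, one of the elements common to class II promoters. They are the 200 bases before the RefSeq start (GRCm38.p6), at chr17:34287824-34288023, minus strand for H2-Aa and chr17:34305667-34305866, plus strand for H2-Eb1, with CTGATTGG, searched on both strands, in capitals.
H2-Aa: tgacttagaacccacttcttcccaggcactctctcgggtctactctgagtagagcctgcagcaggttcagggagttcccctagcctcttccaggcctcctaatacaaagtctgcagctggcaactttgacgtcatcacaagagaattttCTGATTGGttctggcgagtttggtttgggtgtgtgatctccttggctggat
H2-Eb1: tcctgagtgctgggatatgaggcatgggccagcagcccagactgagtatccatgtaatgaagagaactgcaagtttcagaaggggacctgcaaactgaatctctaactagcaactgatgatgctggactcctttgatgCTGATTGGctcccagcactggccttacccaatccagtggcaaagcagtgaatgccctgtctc
It begins 51 bases before the start in H2-Aa and 62 in H2-Eb1, on the strand of the gene in both, and overlaps neither other element. Among 7 tested class II genes with a window, these 2 hold it (28.6%), against 584 of 9599 tested genes (6.08%) and 3.54% of all windows. The AP-1 element was also in 2 of the 7 (28.6%, H2-DMa and H2-DMb1), against 4.50% of tested genes. A higher share than among tested genes was therefore not particular to the Y box.

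Class I presentation was lower by less. All 14 tested genes had negative fitted differences, 4 of them separated (median -0.17). The list median was -0.34 within controls and -0.02 within knock-ins, so the lowering was seen mainly in controls. That contrast between genotypes was not tested for the list. Without knock-in 4, 8 were separated, and with the threshold at 5 CPM none. Tap1, which carries peptides into the endoplasmic reticulum, was at 25.5, 29.6 and 33.7 CPM against 35.9 to 43.1 CPM (median 39.8), and H2-Q4, a non-classical class I gene whose reads can be shared with close paralogs, at 23.5, 30.3 and 33.9 CPM against 34.4 to 47.9 CPM (median 38.3). Interferon-stimulated genes went 2 ways. Their median was -0.54 within controls and 0.20 within knock-ins, which was not tested for the list, and with all libraries 1 of 30 was separated (Mx2, downward, median -0.19). Without knock-in 4, 10 were separated downward and the median was -0.58.

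Proliferation genes were lower as a group by a small amount. Of 36 genes, all tested, 19 were separated downward and none upward, and 2 had positive differences (median -0.32). Kif11, a motor of the mitotic spindle, was at 21.2, 20.6 and 20.2 CPM against 21.7 to 35.1 CPM (median 30.4), a log2 difference of -0.53 ± 0.13. Cdc20, an activator of the anaphase-promoting complex, was at 5.59, 7.51 and 6.64 CPM against 8.79 to 12.7 CPM (median 10.1), and Tk1, the S-phase thymidine kinase, at 10.0, 11.3 and 10.8 CPM against 12.6 to 16.7 CPM (median 15.2). Top2a was at 93.3, 80.9 and 85.6 CPM against 95.2 to 129.8 CPM (median 116), and Mki67, the antigen Ki-67, overlapped at 121, 104 and 105 CPM against 116 to 152 CPM (median 144); both were named after their values were seen. By column totals 24 of the 36 were separated downward, and with the threshold at 5 CPM none were.

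Markers of alternative activation had 6 of 16 tested genes separated upward and none downward (median 0.26), and with the threshold at 5 CPM none was. Arg1, arginase 1, was at 3.23, 1.25 and 2.01 CPM against 0.129 to 1.17 CPM (median 0.584), and Chil3, a chitinase-like protein that neutrophils also make, at 4.70, 5.44 and 3.91 CPM against 1.00 to 2.70 CPM (median 1.48). Of 21 tested inflammatory cytokines and NF-kB targets, 3 were separated upward and 2 downward. Il1a and Il1b, the interleukin-1 cytokines, were at 8.28, 6.15 and 6.18 CPM and 2.45, 2.01 and 2.47 CPM, against 1.85 to 3.44 CPM (median 2.85) and 0.719 to 1.83 CPM (median 0.901), while Ccl2, a monocyte chemokine, was at 12.01, 11.8 and 10.0 CPM against 12.1 to 22.7 CPM (median 17.5). Interleukin-1 and Ccl2 thus pointed in opposite directions, at low levels for the former.

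Groups of housekeeping genes had small median differences. Among all tested genes 6.66% were separated upward and 4.89% downward. None of 40 cytosolic ribosomal protein genes was separated (median -0.01). For 41 nuclear genes of the respiratory chain 3 were separated upward and none downward (median 0.08), and by column totals none upward and 1 downward (median -0.01); without control 2, 12 were separated upward, and without knock-in 4, 8. Lysosomal genes had 9 of 36 separated upward and 1 downward, which by column totals became 3 and 2. With TMM their upward share was above that of all genes, and 28 of the 36 had positive differences (median 0.09). Of 24 tested genes of sterol synthesis and uptake, 0 were separated upward and 1 downward, with 20 negative differences (median -0.20). Of 24 unfolded-protein-response genes, 4 were separated upward and 1 downward.

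Among the largest downward differences outside the lists, several were split among the stroma-poor libraries themselves. Gdf3, a growth factor of the TGF-beta family, was at 16.9, 10.1 and 14.4 CPM against 22.8 to 96.8 CPM (median 44.4). Ctse, the protease cathepsin E, was at 0.980, 1.39 and 1.29 CPM, but the stroma-poor libraries fell into 3 with 27.7 to 33.7 CPM (control 5, knock-in 1 and knock-in 2) and 4 with 1.40 to 2.40. AY512931, a non-coding RNA, drew no count in the stroma-rich libraries and was high in the same 3 stroma-poor libraries, at 3.41 to 5.00 CPM. Against a floor of 3 counts over the stroma-rich group, the stroma-poor mean is at least 48.0-fold higher. The pseudogene Gm15459 lay at 419 to 525.57 CPM in control 2, control 3, control 5 and knock-in 1 and at 0 to 0.860 CPM in the other 6, so its groups overlapped, and reads of pseudogenes may be shared with their parent gene. Igha, an antibody heavy-chain gene, was at 0.245, 0.397 and 0.412 CPM against 0.584 to 7.95 CPM (median 3.91).

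The 2 genotypes offer 2 sets of different libraries, 2 stroma-rich against 3 stroma-poor controls and 1 against 4 knock-ins. Over the 12866 genes the 2 log2 differences had a Pearson r of 0.59 and a Spearman rho of 0.44; these are across genes, which are not independent, and both sets share the scaling. The 12866 include 312 genes that passed the filter only through the stroma-rich libraries, which come from both genotypes. Without the 6 lists of stromal, matrix, protease and smooth muscle genes, r was 0.53 over 12776 genes. The counts that follow keep the 312 as well, so part of the likeness may be given by the filter. Of 623 genes at least 1.5-fold higher and separated in the controls, 457 (73.4%) were highest in knock-in 4 among the 5 knock-ins, where it was the highest library for 25.9% of all genes. Of 423 lower genes, 211 (49.9%) were lowest there, beside 23.9% of all genes. For H2-Aa the difference was -1.49 within controls and -0.98 within knock-ins, for Prdx1 0.61 and 0.60, and for Col1a2 4.49 and 4.49.

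**Figure D5:**
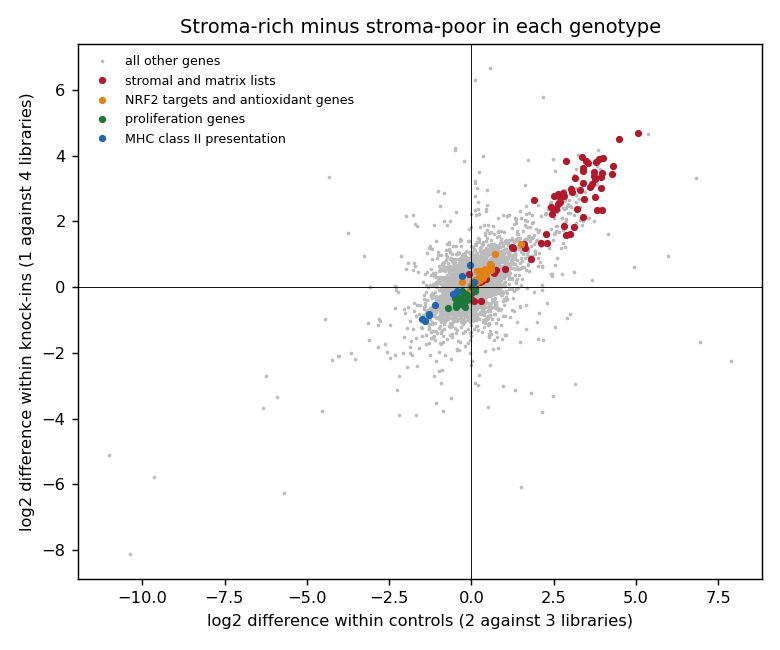
Log2 difference of each tested gene, stroma-rich minus stroma-poor, within controls (x axis, 2 against 3 libraries) and within knock-ins (y axis, 1 against 4 libraries). Genes of the stromal, collagen, matrix and collagen-processing lists (red) lie mostly far out in the upper right, NRF2 targets (orange) near the centre on the upper right, and proliferation (green) and several MHC class II genes (blue) on the lower left.

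Genotype was tested with and without the division as a covariate, since 2 of 5 controls and 1 of 5 knock-ins were stroma-rich (edgeR quasi-likelihood, Benjamini-Hochberg adjusted over 12867 genes). With the covariate 11 genes (0.0855%) passed an adjusted p of 0.05, 6 higher and 5 lower in knock-ins, and without it 8 (0.0622%), 8 of which were in both sets. Genes at an unadjusted p under 0.05 numbered 928 and 790. None of the 11 was separated by the division, where 6.66% of all tested genes were separated upward and 4.89% downward. So few genes cannot show a departure from those shares. The 3 gained were Tmcc1, a protein of the endoplasmic reticulum, Mbd4, a DNA glycosylase, and Itga4, the alpha-4 integrin. Whether any of the 3 lies near the site of the introduced human gene was not tested. Tmcc1 fell by 0.68 on the log2 scale in knock-ins (adjusted p = 0.00178 with the covariate and 0.0531 without, edgeR); its controls 1 and 4 were at 69.4 and 78.6 CPM and the other 3 at 49.2 to 62.3. Mbd4 rose by 0.68 (adjusted p = 0.0137 and 0.0560, edgeR) and Itga4 by 0.29 (adjusted p = 0.0336 and 0.202, edgeR).

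The interaction, which asks whether the stroma-rich difference itself depends on genotype, called no gene in edgeR (0.0%). Its smallest adjusted p was 0.103, with 411 genes at an unadjusted p under 0.05 (3.19% of those tested). DESeq2 called 15 genes and had 293 at an unadjusted p under 0.05, and limma-voom called 0 with 450. The term rests on knock-in 4 as the single stroma-rich knock-in, so its precision is low and a missed threshold does not show equal differences.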

How the data were processed

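Poly(A)+ RNA of macrophage cultures from 5 control and 5 hWDFY3KI/KI mice was sequenced on strand-specific paired-end libraries, per the labels' protocols. The authors deposited estimated counts per gene; Salmon 1.6.0, DESeq2 1.34.0 and MultiQC are named in the submitters' processing notes, which list GRCm39 and mm10 without a role, so coordinates are from GENCODE M21 and RefSeq (GRCm38). The authors also deposited a log2 table, used only as an alternative; by the name the authors gave it, it holds regularized log values. Of 54307 gene IDs 51510 were named; rows with no name held at most 0.00347% of a library.

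Counts were rounded and fitted in R 4.3.3 with edgeR 4.0.16 (TMM, quasi-likelihood, genotype and stroma group as terms). Genes needed 10 counts at the median depth in 3 libraries; log2 CPM used a prior count of 2. The common biological coefficient of variation was 12.2%. Alternatives used limma 3.58.1 and DESeq2 1.42.0, other scalings, filters and thresholds, and leaving out each replicate; the code was tested on simulated data. No 2 libraries were duplicates: the 45 pairs differed by chi-square values of 9.00 to 59.4 per gene. With p-values, 0.05 after Benjamini-Hochberg adjustment was the threshold.

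The libraries and gene lists were chosen with earlier results of these data known. Genes were named by rule: the 4 markers; the 12 largest separated differences each way at a mean of 1 CPM or more, predicted genes aside; up to 4 separated members per list; defining markers of other cell types; the 6 largest CPM gains and losses; and up to 6 genes called for genotype in 1 fit only. Exceptions are stated, and some genes that the rule names are not reported here. Same-numbered controls and knock-ins did not pair.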

Additional observations from a re-analysis of the deposited data

Results flagged for a closer look

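Of 144 group values examined (list means of log2 CPM and 4 marker genes, within genotype and within the stroma-poor libraries) 3 had 1 library far from the rest by Dixon's criterion, and chance alone gives about 1 in 20. In the control group the mean log2 CPM of the T and NK list was 1.84 in control 4, against 2.16 to 2.25 in the other 4 controls; the defining Cd3e, Cd3g and Ncr1 were under 1 CPM throughout. In the knock-in group the dendritic list had a mean of 2.04 in knock-in 4, the stroma-rich one, against 1.06 to 1.32 in the other 4. Among the stroma-poor libraries the protease and inhibitor list had a mean of 3.68 in knock-in 5, against 4.30 to 4.66 in the other 6; knock-in 5 also had the lowest Col1a1 and the lowest Mmp12.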

How the results depend on the processing

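Of 139 named genes whose groups did not overlap, 1 changed sign under an alternative (Maff, 0.57 against -0.09 under the replicate block), as did 14 of the 39 that overlapped, Nqo1 among them (0.61 against -0.11 under the block). Scaling by column totals turned the balance of separated genes at any fold, and with it the respiratory chain and the median of the genes for taking up apoptotic cells, as given above. The number of separated genes at 1.5-fold (390 higher, 156 lower) was 639 higher without a filter beyond 1 count, 255 higher at a mean of at least 1 CPM, 112 and 48 with knock-in 3 counted as stroma-rich (split at 5 CPM), 42 and 12 in the deposited log2 table fitted with limma, and 249 and 66 at 2-fold. Leaving out each replicate gave 368 to 416 higher and 165 to 265 lower genes, the latter highest without knock-in 4. The genotype count with the covariate (11) was 36 without a filter, 85 in DESeq2 and 38 in the 7 stroma-poor libraries alone, and 8 to 27 with a replicate left out (20 without control 1, 27 without knock-in 4). Without the covariate (8) it was 55 in DESeq2 and 14 in limma-voom, and 6 to 23 with a replicate left out (23 without knock-in 4). The interaction count (0) was 5 without a filter, 6 at the 5 CPM split, 15 in DESeq2 and 0 to 2 with a replicate left out; it could not be fitted without knock-in 4. Where a control or knock-in stroma-rich library is left out, the others are assumed to vary alike. The cause of these moves was not tested.

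Replicate numbers are shared by the genotypes, but same-numbered libraries correlated at -0.24, -0.01, 0.01, 0.52 and 0.25, and 2 of 5 controls correlated best with their own number. The replicate block gave 26 genotype genes with the covariate and 14 for the interaction; it left 11 without the covariate, and 372 higher and 184 lower separated genes. Of 178 named genes it moved 115 differences beyond the spread between replicates, and the deposited log2 table moved 123 of 175. Under the block the division is estimated only from the pair numbered 1, since both libraries of each other pair fall in the same group. Depth limits the genes under about 1 CPM, where the stroma-poor libraries often hold only a few counts.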
